A study of Mus musculus with 6 samples.

Results

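The enzymes that take ubiquitin off histone H2A, and their partner proteins, were followed at the transcript level in mouse germinal vesicle (GV) oocytes, which are fully grown oocytes arrested before meiosis resumes. The set was Bap1, Asxl1, Asxl2, Asxl3, Hcfc1, Usp16, Usp21 and Mysm1. It was chosen by symbol, with earlier results of these data known. All 8 genes were found among the 24421 gene identifiers of the deposited read-count table. The first group, called DKO, had the genotype Ring1 -/-; Rnf2 f/f; Zp3-cre, in which the Cre transgene is driven by the promoter of an egg coat gene that is active in growing oocytes. The other group, called SKO, had the genotype Ring1 -/-; Rnf2 f/f without the transgene, so every animal lacked Ring1, and what Cre alone does cannot be told apart from what Rnf2 deletion does. The oocytes came from females of about 3 months on a mixed FVB, 129/Sv and C57BL/6J background. Each group had 3 libraries, and each library was made from 15 oocytes of 1 mouse by RNA amplification. The comparison addresses what the loss of Rnf2 on a Ring1-null background does to the transcripts of the opposing enzymes.

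Ring1 and Rnf2 encode the E3 ligases of Polycomb repressive complex 1 (PRC1), which places single ubiquitin molecules on histone H2A in repressed chromatin. Removal of this mark is carried out by several deubiquitinases. Bap1 encodes the catalytic subunit of the Polycomb repressive deubiquitinase, PR-DUB, which needs one of the ASXL proteins for its activity, and Hcfc1 encodes a chromatin adaptor that binds the same enzyme. Usp16, Usp21 and Mysm1 encode deubiquitinases of other families that also act on ubiquitylated H2A.

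All 8 genes were well detected, and none passed the test between genotypes. The test was edgeR's quasi-likelihood test, two-sided and adjusted by Benjamini-Hochberg over 14845 genes, and a gene was called at an adjusted p under 0.05. By this rule 0 of the 8 genes were called, against 24.7% of all tested genes (17.3% higher in DKO and 7.41% lower). The DESeq2 Wald test and limma voom (with library weights by genotype) also called 0 of the 8, against 30.2% and 27.2% of all tested genes. Bap1 was close to the threshold in both (DESeq2 adjusted p = 0.0508, limma voom adjusted p = 0.0565). At an unadjusted p under 0.05 there was 1 gene, Bap1, against 37.2% of all tested genes. The median log2 fold change of the 8 genes, DKO over SKO, was -0.19, beside 0.04 over all tested genes, with 5 values below 0 and 3 above. For 7 of the 8 genes the whole 95% interval of the fold lay between 0.5 and 2, and Usp21 was the exception. Values are given as CPM, read counts relative to library size, on sizes scaled by the trimmed mean of M-values (TMM), as mean ± SD over 3 mice a group. CPM are relative to each library's own TMM-scaled size, so a change in RNA per oocyte cannot be told apart from a change in the other transcripts.

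**Figure D1:**
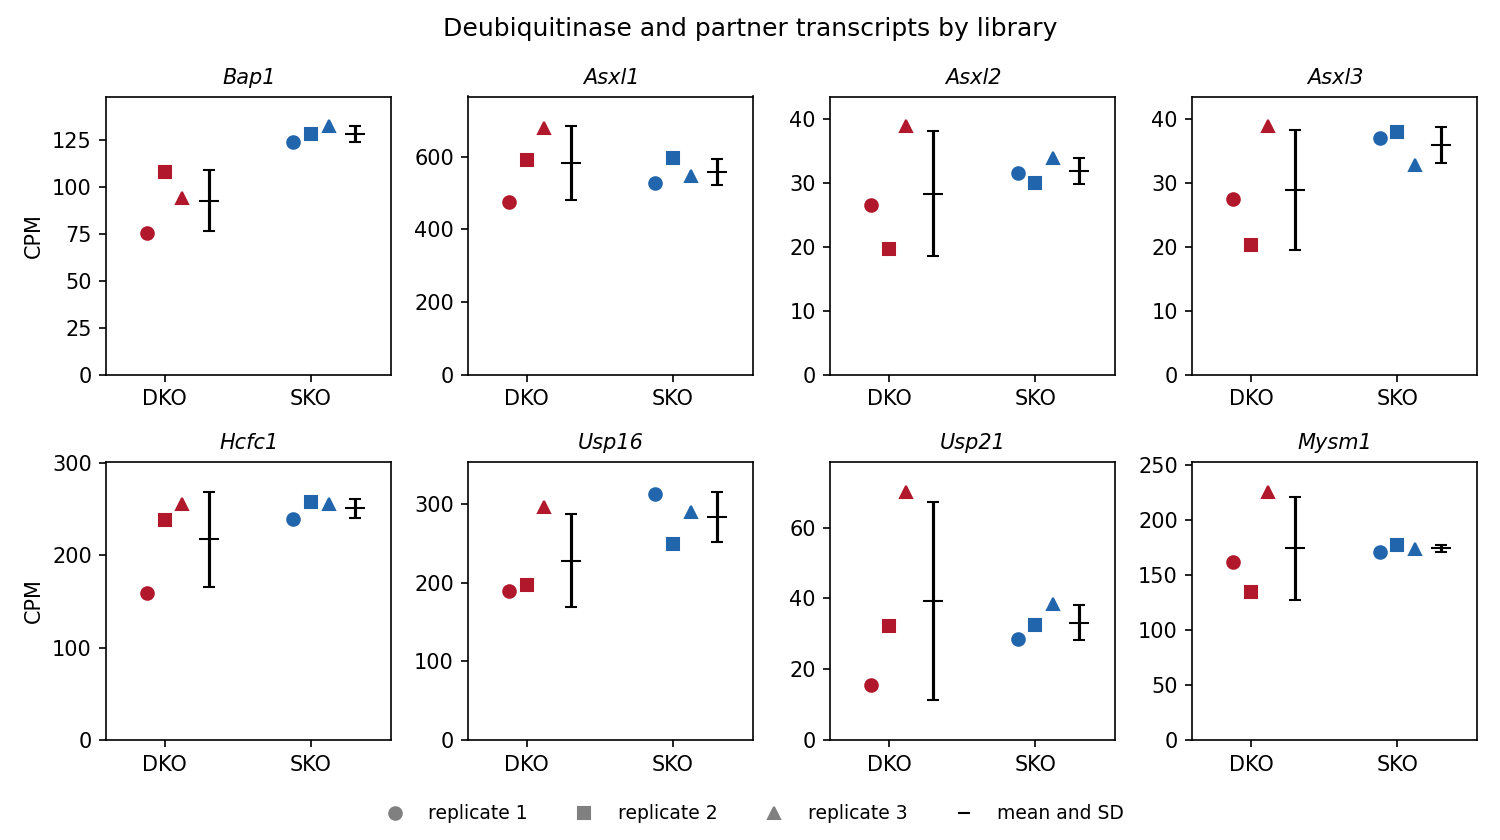
Level of each of the 8 genes in CPM (vertical axes, linear from 0) in the 3 DKO and the 3 SKO libraries; symbols mark replicates, and bars give the mean and SD. Bap1 was the gene whose DKO libraries (75.3 to 107.8 CPM) all lay below its SKO libraries (123.7 to 132.1 CPM).

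Bap1, the catalytic subunit gene (Entrez 104416, chromosome 14, 31251352 to 31259930, GRCm38, RefSeq annotation), measured 75.3, 107.8 and 94.2 CPM in DKO replicates 1 to 3, against 123.7, 127.9 and 132.1 CPM in SKO replicates 1 to 3. The groups did not overlap, which was the case for 19.6% of all tested genes in this direction. Bap1 averaged 92.4 ± 16.3 CPM in DKO and 127.9 ± 4.17 CPM in SKO, a log2 fold change of -0.47 (SE 0.18, 95% interval -0.86 to -0.077). It did not pass the adjustment over all genes (edgeR, unadjusted p = 0.0236, adjusted p = 0.0792). Bap1 passed when trends over GC content and length were removed (-0.44, edgeR adjusted p = 0.0454) and without DKO replicate 2 (-0.60, edgeR adjusted p = 0.0403). Over all alternatives its adjusted p ranged from 0.0403 to 0.218 and its log2 fold change from -0.60 to -0.31.

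Asxl1 (Entrez 228790, chromosome 2, 153345830 to 153404007) encodes an ASXL subunit that activates BAP1. It measured 475.0, 591.7 and 677.5 CPM in the DKO libraries, against 526.3, 596.1 and 546.4 CPM in the SKO libraries. The lowest and the highest of these 6 values were both DKO libraries, on either side of the whole SKO range. The log2 fold change was 0.06 (SE 0.17, 95% interval -0.32 to 0.44, edgeR adjusted p = 0.818), which is a fold of 1.05 with an interval from 0.804 to 1.36.

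Asxl2 (Entrez 75302, chromosome 12, 3426857 to 3510811) and Asxl3 (Entrez 211961, chromosome 18, 22344077 to 22530227), the paralogs that can take the place of ASXL1 in the complex, were far less abundant. Asxl2 measured 26.5, 19.6 and 38.8 CPM in the DKO libraries, against 31.5, 29.9 and 33.9 CPM in the SKO libraries. Asxl3 measured 27.5, 20.3 and 38.8 CPM in the DKO libraries, against 37.1, 37.9 and 32.7 CPM in the SKO libraries. For both paralogs DKO replicate 3 was above every SKO library and the other 2 DKO libraries were below every SKO library. The log2 fold changes were -0.17 for Asxl2 (95% interval -0.75 to 0.41, edgeR adjusted p = 0.679) and -0.31 for Asxl3 (95% interval -0.87 to 0.25, edgeR adjusted p = 0.403).

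Hcfc1, the gene of the chromatin adaptor that binds BAP1 (Entrez 15161, chromosome X, 73942792 to 73966995), measured 158.8, 238.0 and 256.1 CPM in the DKO libraries, against 239.6, 257.5 and 256.1 CPM in the SKO libraries. DKO replicate 1 stood lowest, DKO replicate 2 was just under the SKO range, and DKO replicate 3 was within it. Its log2 fold change was -0.21 (SE 0.19, 95% interval -0.64 to 0.22, edgeR adjusted p = 0.478).

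Usp16 (Entrez 74112, chromosome 16, 87454985 to 87483515) encodes an H2A deubiquitinase known from cell division and from stem cells. It measured 189.8, 197.2 and 295.8 CPM in the DKO libraries, against 312.3, 249.1 and 289.4 CPM in the SKO libraries. DKO replicates 1 and 2 lay below all SKO libraries, and DKO replicate 3 lay within their range. The log2 fold change was -0.32 (SE 0.20, 95% interval -0.77 to 0.13, edgeR adjusted p = 0.284). Without DKO replicate 3 it was -0.56 and passed the test (edgeR adjusted p = 0.0225), and over all alternatives the adjusted p ranged from 0.0225 to 0.519. The end of Usp16 shares 191 bases with the end of Cct8, a chaperonin subunit gene, and the rule by which the authors assigned reads there is not known here. Cct8 itself averaged 79.0 ± 2.53 CPM in DKO and 90.5 ± 4.09 CPM in SKO (log2 fold change -0.20, edgeR adjusted p = 0.398).

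Mysm1 (Entrez 320713, chromosome 4, 94942037 to 94979155), which encodes a metalloprotease that removes ubiquitin from H2A, had nearly the same mean in both genotypes. It measured 162.0, 134.5 and 225.7 CPM in the DKO libraries, against 171.1, 177.0 and 173.9 CPM in the SKO libraries. The SKO libraries lay within a narrow band, and the DKO libraries lay on both sides of it. The means were 174.1 ± 46.8 CPM in DKO and 174.0 ± 2.93 CPM in SKO, and the log2 fold change was 0.00074 (SE 0.20, 95% interval -0.44 to 0.44, edgeR adjusted p = 0.998).

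Usp21 (Entrez 30941, chromosome 1, 171281949 to 171287961), whose product removes ubiquitin from H2A and from signalling proteins, varied most. It measured 15.6, 32.1 and 70.2 CPM in the DKO libraries, against 28.4, 32.6 and 38.4 CPM in the SKO libraries. The DKO libraries spanned the SKO range on both sides, with 274, 684 and 1809 counts, so counting error was small beside the spread. The log2 fold change was 0.25 (SE 0.43, edgeR adjusted p = 0.710), and its 95% interval of the fold, from 0.614 to 2.30, was the widest of the 8. The value was 0.63 without DKO replicate 1 and -0.48 without DKO replicate 3, so its direction rested on single libraries.

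**Figure D2:**
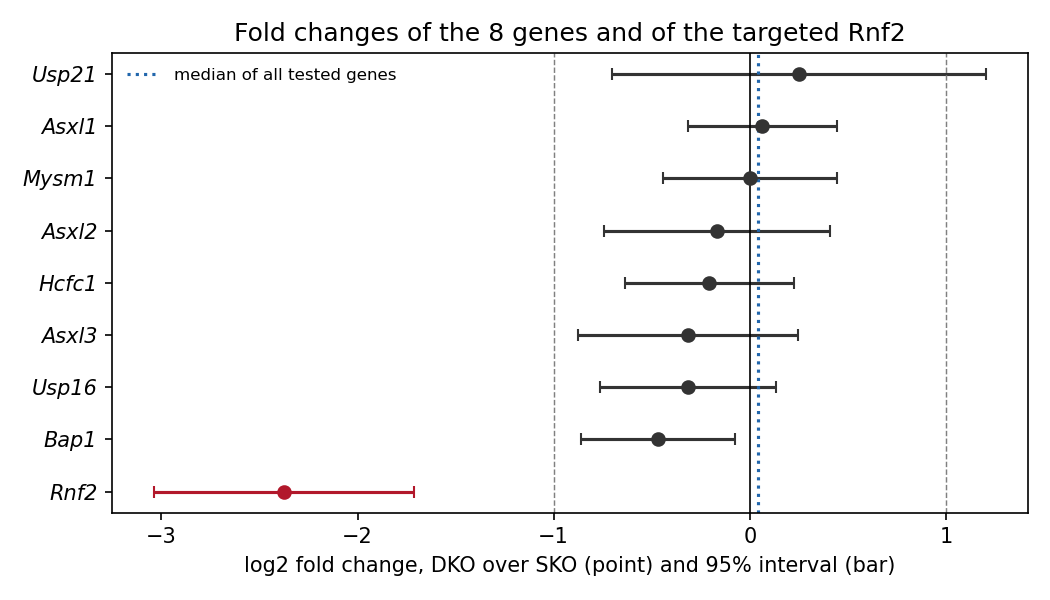
Log2 fold changes, DKO over SKO (horizontal axis), of the 8 genes and of the targeted Rnf2, as points with 95% intervals; dashed lines mark -1 and 1, and the dotted line marks the median of all tested genes (0.04). The 8 genes lie between -0.47 and 0.25, and Rnf2 lies at -2.38.

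The DKO libraries differed among themselves more than the SKO libraries did for all 8 genes, as they did for 76.8% of all tested genes. The coefficient of variation ran from 17.5% (Asxl1) to 71.3% (Usp21) over the DKO libraries and from 1.69% (Mysm1) to 15.1% (Usp21) over the SKO libraries. DKO replicate 3 held the highest DKO value for 7 of the 8 genes, all but Bap1, while it was the highest DKO library for 34.3% of all tested genes. DKO replicate 3 was also the DKO library with the fewest Rnf2 transcripts, at 22.9 CPM against 56.3 and 30.7 CPM in DKO replicates 1 and 2, and the one with the most counts. Whether depth or Rnf2 level has a part in the order of the DKO libraries was not tested.

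Counts depend on gene length, so for comparison between genes CPM were divided by the deposited gene length in kilobases. This takes reads to be spread evenly along transcripts, which was not examined. In DKO the order was Asxl1 (87.1 ± 15.2 CPM per kb), Usp16 (66.3 ± 17.2), Bap1 (27.1 ± 4.78), Hcfc1 (26.7 ± 6.35), Mysm1 (18.5 ± 4.96), Usp21 (10.5 ± 7.52), Asxl2 (2.65 ± 0.91) and Asxl3 (2.47 ± 0.80). In SKO it was Asxl1 (83.3 ± 5.39 CPM per kb), Usp16 (82.6 ± 9.33), Bap1 (37.5 ± 1.22), Hcfc1 (30.8 ± 1.22), Mysm1 (18.5 ± 0.31), Usp21 (8.89 ± 1.34), Asxl3 (3.07 ± 0.24) and Asxl2 (2.97 ± 0.19). In SKO the neighbours Asxl1 and Usp16, and Asxl3 and Asxl2, overlapped in their ranges, and all other neighbours were apart. In DKO only Usp16 and Bap1, and Usp21 and Asxl2, were apart among neighbours. Per length, Asxl1 stood above 96.7% of tested genes in DKO and above 95.4% in SKO, and Usp16 stood above 95.3% in SKO. Asxl2 stood above 37.2% of tested genes in DKO and 44.2% in SKO.

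**Figure D3:**
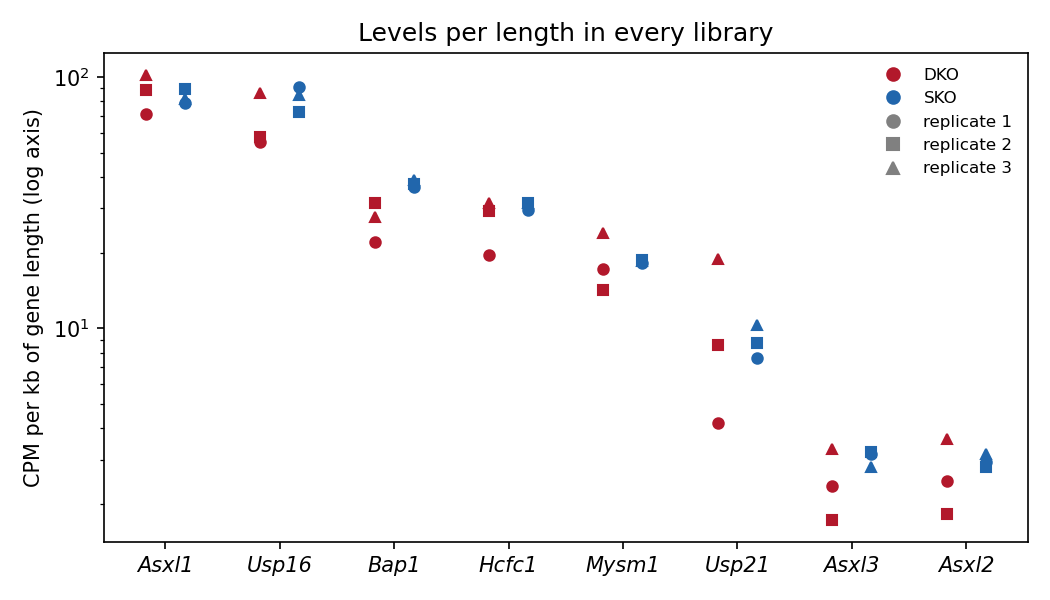
CPM per kb of gene length (vertical axis, log scale) of each gene in the 3 DKO and the 3 SKO libraries, ordered by the SKO mean. Asxl1 and Usp16 lie highest, between 55.3 and 101.5 CPM per kb, and Asxl3 and Asxl2 lowest, between 1.73 and 3.63 CPM per kb.

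The ASXL subunit transcripts of both genotypes were almost entirely Asxl1. Asxl1 made up 93.6%, 96.1% and 93.6% of the summed per-length level of the 3 Asxl genes in DKO replicates 1 to 3, against 92.8%, 93.7% and 93.2% in SKO replicates 1 to 3. Asxl2 made up 1.99% to 3.35% in DKO and 2.94% to 3.61% in SKO. Asxl3 made up 1.88% to 3.09% in DKO and 3.19% to 3.73% in SKO. These shares are a description without a test, and they were not set beside other genes.

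The windows before the start sites of the 2 most abundant genes and of a scarce Asxl paralog are shown because they share a short sequence across very different transcript levels. They are 250 bases each, 5′ to 3′ on the gene's strand, from RefSeq promoters of GRCm38.p6, at chr2:153345580-153345829 (Asxl1), chr16:87454735-87454984 (Usp16) and chr12:3426607-3426856 (Asxl2), all on the plus strand. Capitals mark CCGGAAG or its reverse complement CTTCCGG, the core of the motif bound by ETS family factors.
Asxl1: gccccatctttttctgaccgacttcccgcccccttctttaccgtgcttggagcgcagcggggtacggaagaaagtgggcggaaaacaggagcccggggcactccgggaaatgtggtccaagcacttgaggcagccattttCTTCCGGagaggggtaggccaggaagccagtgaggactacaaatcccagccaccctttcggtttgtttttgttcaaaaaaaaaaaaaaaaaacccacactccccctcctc
Usp16: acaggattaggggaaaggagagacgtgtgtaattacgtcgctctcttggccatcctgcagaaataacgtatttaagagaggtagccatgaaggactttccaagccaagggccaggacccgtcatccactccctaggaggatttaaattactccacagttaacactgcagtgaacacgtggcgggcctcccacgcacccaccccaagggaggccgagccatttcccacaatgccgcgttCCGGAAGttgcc
Asxl2: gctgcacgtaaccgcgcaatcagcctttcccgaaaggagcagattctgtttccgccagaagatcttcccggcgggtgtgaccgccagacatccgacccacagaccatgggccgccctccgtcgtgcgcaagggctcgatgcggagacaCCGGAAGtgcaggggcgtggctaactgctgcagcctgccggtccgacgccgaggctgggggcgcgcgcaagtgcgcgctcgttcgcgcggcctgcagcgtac
A window was found for 7 of the 8 genes, and 5 of the 7 held this motif on either strand. It was in 6.91% of all 32851 windows and in 14.7% of the 11685 windows with at least 11 CG dinucleotides. That cutoff was the lowest count among the 7 windows, so the set is not matched to those with more. The Hcfc1 window, which held the motif, lay within the gene span given above. The windows of Mysm1, with the motif, and Bap1, without it, ran partly into their gene spans. The CG count was 11 for Asxl1, 12 for Usp16, 14 for Usp21, 19 each for Hcfc1 and Mysm1, 31 for Asxl2 and 43 for Bap1, beside a median of 6 over all windows. Asxl1, at 28.2 times the per-length level of Asxl2 in SKO, had the window with the fewest CG dinucleotides of the 7. The GC box, GGGCGG on either strand, was in 6 of the 7 windows (all but Usp16), beside 32.7% of all windows and 70.7% of those with at least 11 CG dinucleotides. Such matches describe the letters of the window and not binding.

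The balance with the ligase was taken as a ratio of per-length levels within a library, which does not depend on how libraries are scaled. Rnf2, the targeted ligase gene, measured 17.5, 9.56 and 7.12 CPM per kb in DKO replicates 1 to 3, against 63.2, 55.9 and 58.4 CPM per kb in SKO replicates 1 to 3 (log2 fold change -2.38, edgeR adjusted p = 0.000349). The sources used here do not say whether the floxed exons were counted, so transcripts with and without them may be counted alike. Ring1, null in both genotypes, was below the filter for testing, with at most 13 counts in any library. The 4 deubiquitinase genes Bap1, Usp16, Usp21 and Mysm1 summed to 98.8, 112.0 and 156.6 CPM per kb in the DKO libraries, against 153.1, 137.6 and 151.8 CPM per kb in the SKO libraries. DKO replicates 1 and 2 lay below the SKO range and DKO replicate 3 above it.

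Bap1 stood at 1.26, 3.31 and 3.88 times the per-length level of Rnf2 in the DKO libraries, against 0.575, 0.671 and 0.664 times in the SKO libraries. Asxl1 stood at 4.06, 9.27 and 14.3 times Rnf2 in the DKO libraries, against 1.25, 1.60 and 1.40 times in the SKO libraries. Usp16 stood at 3.15, 6.01 and 12.1 times Rnf2 in the DKO libraries, against 1.44, 1.30 and 1.44 times in the SKO libraries. For all 8 genes every DKO ratio exceeded every SKO ratio. The same held for 93.2% of all tested genes, so the shift is not particular to these genes.

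Within PR-DUB, the proportion of the catalytic subunit transcript to the most abundant ASXL transcript was taken in the same way. The ratio of Bap1 to Asxl1 per length was 0.311, 0.357 and 0.272 in the DKO libraries, against 0.461, 0.420 and 0.474 in the SKO libraries. All DKO ratios lay below all SKO ratios, as did the ratio to Asxl1 of 20.9% of all tested genes. Against the sum of the 3 Asxl genes the ratio was 0.255 to 0.343 in DKO and 0.394 to 0.441 in SKO. The ratio of Hcfc1 to Bap1 was 0.882, 0.924 and 1.14 in the DKO libraries, against 0.810, 0.842 and 0.811 in the SKO libraries. These ratios were not tested. For the ratios to the summed Asxl genes and of Hcfc1 to Bap1, which both contain Bap1, no share over all genes was taken.

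**Figure D4:**
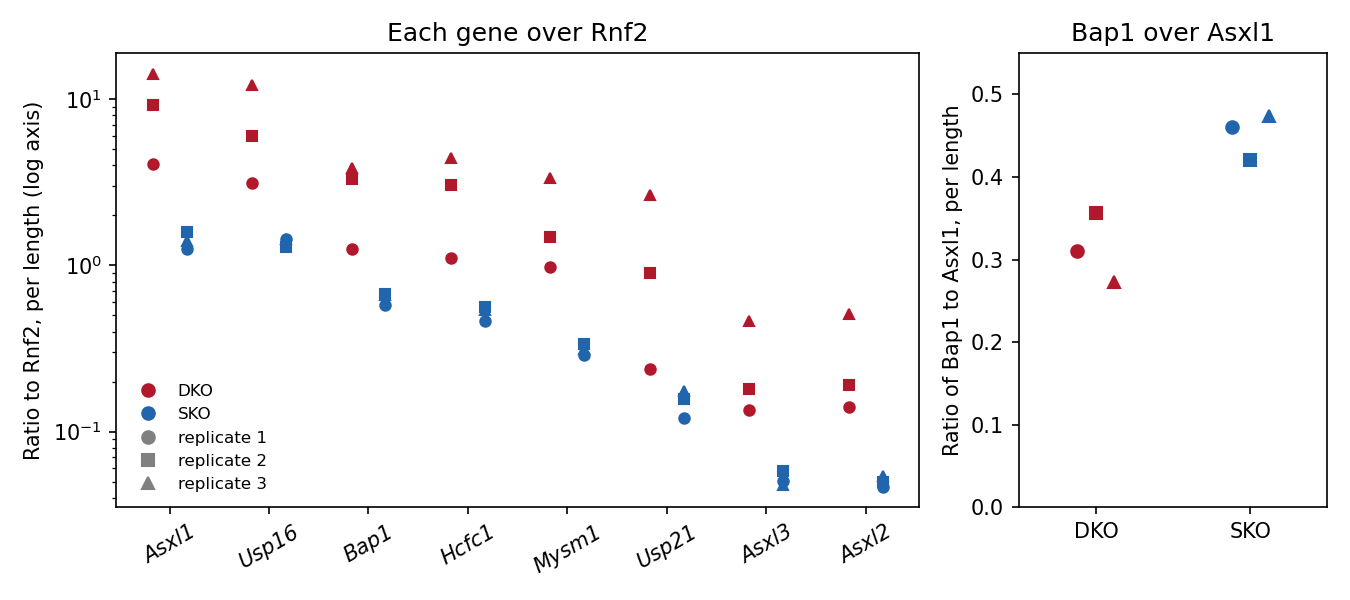
Left, ratio of each gene to Rnf2 per length (vertical axis, log scale) in each DKO and SKO library. Right, ratio of Bap1 to Asxl1 per length (linear axis from 0), with DKO libraries at 0.272 to 0.357 and SKO libraries at 0.420 to 0.474.

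Genes around these enzymes were read from 6 lists with 69 distinct genes, of which 66 were tested. Of the 66, 8 were called lower in DKO and 4 higher, which is 18.2%, beside 24.7% of all tested genes (edgeR, adjusted p under 0.05). Their median log2 fold change was -0.15. The lists share genes, and they were described by counts without a test of the list. For every list below, the count called by edgeR is to be read beside the same 24.7% of all tested genes.

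Of 7 further BAP1 partners (Foxk1, Foxk2, Mbd5, Mbd6, Kdm1b, Ogt and Ube2o), 0 were called by edgeR, beside 24.7% of all tested genes. Their median log2 fold change was -0.17. At an unadjusted edgeR p under 0.05 there were 2 genes, beside 37.2% of all tested genes. DESeq2 called 2 and limma voom 0, beside 30.2% and 27.2% of all tested genes. Foxk2, a forkhead factor gene that recruits BAP1 to DNA, averaged 125.5 ± 16.7 CPM in DKO and 172.7 ± 13.0 CPM in SKO (log2 fold change -0.46, edgeR adjusted p = 0.0679). Mbd6, which encodes a PR-DUB subunit, averaged 36.7 ± 7.31 CPM in DKO and 55.8 ± 10.3 CPM in SKO (-0.61, edgeR adjusted p = 0.0713). These 2 genes were named after their values were seen.

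Of 16 other deubiquitinases of H2A and H2B and their cofactors, 1 was lower and 0 were higher (median log2 fold change -0.32). DESeq2 called 3 of the 16, beside 30.2% of all tested genes. The gene that fell was Wdr20, which encodes a cofactor of USP12 and USP46. It measured 136.5, 180.8 and 173.0 CPM in the DKO libraries, against 269.3, 299.2 and 298.1 CPM in the SKO libraries, without overlap (log2 fold change -0.82, SE 0.17, edgeR adjusted p = 0.00538). The call of Wdr20 held in all 15 alternatives. Of 9 tested genes of the SAGA deubiquitinase module and the BRCC36 complexes, 1 was lower and 1 was higher (median -0.04). Babam1, a BRCC36 complex subunit gene, averaged 12.8 ± 4.08 CPM in DKO and 23.5 ± 0.76 CPM in SKO (-0.87, edgeR adjusted p = 0.0381). Atxn7l1, a paralog of the SAGA subunit gene Atxn7, averaged 50.2 ± 20.3 CPM in DKO and 26.1 ± 6.03 CPM in SKO (0.94, edgeR adjusted p = 0.0455). Neither call held in every alternative, where the largest adjusted p was 0.107 for Babam1 and 0.165 for Atxn7l1.

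Of 18 tested ubiquitin ligases of H2A and H2B and PRC1 cofactors, 1 was higher and 3 were lower (median log2 fold change -0.0085), Rnf2 among them. Pcgf5, a subunit gene of variant PRC1, measured 15.3, 13.2 and 11.0 CPM in the DKO libraries, against 5.39, 5.53 and 5.51 CPM in the SKO libraries (1.26, SE 0.28, edgeR adjusted p = 0.00806). Dzip3, an H2A ubiquitin ligase gene, averaged 60.1 ± 3.61 CPM in DKO and 93.5 ± 7.82 CPM in SKO (-0.64, edgeR adjusted p = 0.0186). Rnf40, which encodes an H2B ubiquitin ligase subunit, averaged 57.2 ± 8.85 CPM in DKO and 90.6 ± 6.84 CPM in SKO (-0.66, edgeR adjusted p = 0.0234). Neither Dzip3 nor Rnf40 passed in every alternative, where the largest adjusted p was 0.0952 for Dzip3 and 0.0991 for Rnf40.

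Of 7 readers of ubiquitylated H2A, 1 was higher and 1 was lower (median log2 fold change 0.09). Rsf1, which encodes a remodeling factor that binds nucleosomes with ubiquitylated H2A, measured 93.0, 70.6 and 112.8 CPM in the DKO libraries, against 38.0, 50.4 and 44.7 CPM in the SKO libraries (1.05, SE 0.21, edgeR adjusted p = 0.00555). Dnmt3a, a de novo DNA methyltransferase gene, measured 245.0, 264.3 and 299.3 CPM in the DKO libraries, against 414.7, 419.2 and 415.5 CPM in the SKO libraries (-0.63, SE 0.15, edgeR adjusted p = 0.0132, up to 0.0642 in the alternatives). Both Rsf1 and Dnmt3a overlap noncoding RNA genes, and those counted in the table (Rsf1os1, Rsf1os2 and Dnmt3aos) differed by at most 1.36 CPM between genotypes. Uchl1os, which overlaps Uchl1 of the next list, had a DKO minus SKO difference of -11.7 CPM, beside -352 CPM for Uchl1.

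Of 11 genes of the ubiquitin hydrolase family of BAP1 and of ubiquitin supply, 1 was higher and 2 were lower (median log2 fold change 0.03). Ube2d1, a ubiquitin-conjugating enzyme gene, averaged 31.6 ± 2.08 CPM in DKO and 15.8 ± 1.52 CPM in SKO (95% interval of the log2 fold change 0.54 to 1.46, edgeR adjusted p = 0.00641). Uchl1, a paralog of Bap1 within the hydrolase family, averaged 546.7 ± 186.8 CPM in DKO and 898.7 ± 48.1 CPM in SKO (-0.72, edgeR adjusted p = 0.0400, up to 0.113 in the alternatives). Ubb, a polyubiquitin gene, averaged 132.7 ± 62.6 CPM in DKO and 306.1 ± 12.3 CPM in SKO (-1.21, edgeR adjusted p = 0.0197, up to 0.0533 in the alternatives). Its level is uncertain because ubiquitin-coding repeats are nearly identical between genes.

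Library totals ranged from 15521975 to 26652745 counts in DKO and from 22990699 to 26437540 in SKO. The 8 genes held between 274 and 17448 counts in each library, far above the floor of 3 counts. Oocyte markers were abundant in every library, summing to 13694 to 18174 CPM in DKO and 23428 to 24966 CPM in SKO over 14 genes. Of the 14, 7 were lower in DKO and 0 higher, beside 7.41% and 17.3% of all tested genes (median log2 fold change -0.65). Of 14 tested granulosa and cumulus markers, 7 were higher and 1 lower in DKO, beside 17.3% and 7.41% of all tested genes. The 18 listed genes summed to 278.8 to 307.2 CPM in DKO and 115.2 to 140.6 CPM in SKO. Ptx3 was at 0 in all libraries. Ptgs2, among the higher markers, averaged 87.1 CPM in DKO and 3.80 CPM in SKO (log2 fold change 4.52). The marker called lower was Cyp19a1 (log2 fold change -0.82, edgeR adjusted p = 0.0274). The median log2 fold change of the 14 tested markers was 1.30, beside 0.04 over all tested genes. The rise was thus not limited to Ptgs2, and it did not extend to all of these markers. Theca, stroma and endothelium markers summed to 116.7 to 139.0 CPM in DKO and 120.9 to 160.9 CPM in SKO. Of 10 tested, 5 were higher and 1 lower in DKO, beside 17.3% and 7.41% of all tested genes. Their median log2 fold change was 1.48. Pecam1, the marker called lower here, averaged 61.0 CPM in DKO and 109.6 CPM in SKO and so weighed on the sums. Blood and immune markers summed to 8.58 to 22.6 CPM in DKO and 11.7 to 16.8 CPM in SKO, with Hba-a1, Hbb-bs and Tyrobp at 0. The most abundant tested markers were Gdf9, Bmp15 and Padi6, then Nr5a2, Ptgs2 and Cyp19a1, then Pecam1, Tek and Kdr, then Laptm5 and Cd68. The part of these shifts in the values of the 8 genes was not tested.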

How the data were processed

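RNA-seq of GV oocytes gave 3 DKO and 3 SKO libraries. The authors deposited raw counts of reads for each Entrez gene, not normalized, beside each gene's length. The submitters' processing notes name STAR 2.5.0a, GRCm38 and mm10. The sources used here do not give the counter, the annotation or the handling of strand and of reads with several alignments. RNA was amplified before sequencing, per the labels' protocols, so counting error understates the true error.

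Column names matched the sample titles. Entrez identifiers were matched to RefSeq GRCm38.p6 (24387 of 24421). Of 139 list entries, 1 was not found. In R 4.3.3, edgeR 4.0.16 kept 14845 genes (filterByExpr, minimum count 10, minimum total 15), scaled them with TMM and compared genotypes with the quasi-likelihood test, tested on simulated data first. Standard errors and 95% intervals come from its F statistic. DESeq2 1.42.0 and limma 3.58.1 were alternatives. The limma voom fit weighted libraries by genotype, at 0.583 for DKO and 1.71 for SKO. The trend over GC and length was a robust loess surface per library, centred so that the TMM scaling stayed, over 14049 genes.

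The genes and lists were chosen with earlier results of these data known. All 8 genes are named, with up to 4 called genes of each list by smallest adjusted p, Rnf2 and Ring1, and the 3 most abundant tested markers of each type, of which 1 is not reported here. Genes with a profile like that of a called member were to be named, and with no member called none were.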

Additional observations from a re-analysis of the deposited data

How the results depend on the processing

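The 8 log2 fold changes were recomputed under 15 alternatives, and 105 of 120 values kept their direction and their side of the threshold. Bap1 passed the test with the GC and length trend removed (-0.44, edgeR adjusted p = 0.0454), which made the count of called members 1 lower and 0 higher. No member passed under another alternative that kept all 6 libraries. Leaving out 1 library at a time gave 0 to 1 members called lower, with log2 fold changes of -0.60 to -0.34 for Bap1, -0.069 to 0.19 for Asxl1, -0.47 to 0.036 for Asxl2, -0.60 to -0.12 for Asxl3, -0.35 to -0.026 for Hcfc1, -0.56 to -0.20 for Usp16, -0.48 to 0.63 for Usp21 and -0.24 to 0.15 for Mysm1. Mysm1, near 0, had -0.010 with RLE size factors, -0.010 with DESeq2, -0.027 with limma voom, -0.037 without a filter, -0.17 with the GC and length trend removed and -0.033 with the replicate block. The cause was not tested.

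Over all genes, 2567 were higher and 1100 lower. Requiring at least 1 CPM in every library, with fewer genes tested, gave 1425 higher and 662 lower. Library totals alone gave 596 lower and moved the median log2 fold change from 0.04 to 0.20, so rises made up 83.0% of calls, against 70.0% with TMM. Leaving out 1 library gave 434 to 1501 lower genes. Same-numbered libraries deviated together at 0.144, 0.0811 and 0.0579 (Pearson r across genes), all 6 libraries correlated best with their own number, and the labels state no pairing. With replicate number as a block, 2651 genes were higher and 1364 lower, and the call of no member changed.

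The 8 genes held at least 274 counts in every library, and the part of depth in their values was not tested.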
